A study of Homo sapiens with 4 samples.

Results

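Integrins are adhesion receptors made of 1 alpha and 1 beta subunit that span the cell membrane and tie the extracellular matrix to the actin cytoskeleton. The 8 subunit genes described here are ITGA2, ITGA3, ITGA5, ITGA6, ITGAV, ITGB1, ITGB4 and ITGB5, chosen by name. They are 8 of 15902 genes in the deposited intron counts, and they hold 191 of the 142206 introns. The RNA came from the cytoplasmic fraction of SUM159, an established human breast cancer cell line of the triple-negative type, and was selected for polyA tails. The cells had received H3B-8800 or DMSO for 12 h, with 2 libraries in each group. H3B-8800 is a small molecule that binds SF3b, the part of the spliceosome that holds the branch point near the end of an intron, and DMSO is its vehicle. The design text calls the libraries of a group biological duplicates and the labels say nothing of how the cultures were kept apart, so p values measure only the spread between these libraries, which may be partly technical. The comparison asks how inhibition of splicing altered the intron-containing and the spliced RNA of these receptor genes outside the nucleus.

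The alpha subunit sets much of the ligand choice. ITGA2 pairs with ITGB1 as a collagen receptor, ITGA3 with ITGB1 as a laminin receptor, and ITGA5 with ITGB1 as the classical fibronectin receptor. ITGA6 pairs with ITGB1 or with ITGB4, and the ITGA6 and ITGB4 pair anchors keratin filaments at hemidesmosomes. ITGAV pairs with several beta subunits, ITGB5 among them, and binds vitronectin and other RGD-containing proteins. ITGB1 is the shared beta chain of many receptors. Integrin genes are cut into many introns: the listed transcripts have 14 introns in ITGB5 and 39 in ITGB4. When an intron stays in a messenger RNA, its first stop codon in the reading frame ends translation early and can mark the RNA for nonsense-mediated decay.

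Among the introns of these genes, intron 25 of ITGA5 had the smallest adjusted p for intronic reads. It lies at chr12:54399948-54400845 on the minus strand of hg38. Its ends are shown with those of intron 26, the next intron downstream, which held almost no intronic reads, and of intron 13, another ITGA5 intron read mostly in H3B-8800 cells. Intron 11 of ITGA3, at chr17:50075527-50075598 on the plus strand, is shown as the intron of that gene with the most intronic reads per kb. The sequences come from GENCODE release 29 transcripts that contain these introns. Capitals mark intron bases, 20 at the 5′ end and 60 at the 3′ end, and small letters mark 6 exon bases.
ITGA5 intron 25, 5′ end: ctggagGTGAGATCCTGAACACTGGC
ITGA5 intron 25, 3′ end: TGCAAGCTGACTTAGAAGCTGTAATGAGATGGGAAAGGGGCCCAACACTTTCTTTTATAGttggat
ITGA5 intron 26, 5′ end: atcctgGTAAGTCAGGCAGGGAATGA
ITGA5 intron 26, 3′ end: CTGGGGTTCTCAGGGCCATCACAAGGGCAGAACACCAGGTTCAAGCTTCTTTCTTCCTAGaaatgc
ITGA5 intron 13, 5′ end: atcctgGTGAGTTGTGCCTGAGGCCC
ITGA5 intron 13, 3′ end: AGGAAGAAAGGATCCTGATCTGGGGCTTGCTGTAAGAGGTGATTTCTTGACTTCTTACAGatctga
ITGA3 intron 11, 5′ end: acatcaGTGAGTGCTGGGGTGCAGCG
ITGA3 intron 11, 3′ end: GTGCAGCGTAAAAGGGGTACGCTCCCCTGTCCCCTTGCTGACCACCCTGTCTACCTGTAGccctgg

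All 4 introns start with GT and end with AG. Intron 25 of ITGA5 is 898 bp long with 44.2% G and C, and intron 26 (chr12:54399759-54399863) is 105 bp long with 51.4%. Of the 20 bases before the final AG, 70% are pyrimidines in intron 25 and 80% in intron 26. Read on in the frame of the ITGA5 coding sequence, intron 25 meets a TGA stop codon whose first base is intron base 10. In intron 13 (chr12:54404476-54404702) the first stop in frame is a TGA at base 48, and in intron 26 it is a TAG at base 103. In intron 11 of ITGA3 it is a TAA at base 21.

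The 4 libraries resembled the labelled line. Vimentin (VIM) stood between 4920 and 6070 CPM of spliced reads. CPM is the count of spliced reads per 1000000 spliced reads of the library, with TMM scaling, and not per total reads. The epithelial genes CDH1, EPCAM and KRT19 stayed at or below 1.04 CPM, while KRT8 and KRT18 were present at 163 to 442 CPM, so that the epithelial list summed to 453 and 527 CPM in H3B-8800 cells and to 635 and 552 CPM in DMSO cells. ESR1 and PGR were at 0 in all 4 libraries and ERBB2 was at 31.2 to 39.2 CPM. Endothelial markers summed to 1.95 to 5.07 CPM. Of the 4 haematopoietic genes read, CD53 was at 0 and CD74 and ITGB2 at or below 0.209 CPM. LCP1 was at 161 and 155 CPM in H3B-8800 cells and at 125 and 133 CPM in DMSO cells, and its part in any result was not tested. Library totals were 58000000 and 62000000 reads in H3B-8800 cells and 64000000 in each DMSO library. Over all introns of other genes, intronic reads were 8.22% ± 0.036 of intronic plus spliced reads in H3B-8800 cells and 4.24% ± 0.0048 in DMSO cells (SD, n = 2 each).

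H3B-8800 shifted the spliced RNA of the subunits in both directions. Spliced reads, those that span an intron, were summed over the introns of each gene. They were higher in 4 of the 8 subunits (ITGB1, ITGAV, ITGA2 and ITGB5), lower in 2 (ITGA3 and ITGB4), and ITGA5 and ITGA6 did not pass (edgeR, quasi-likelihood test, adjusted p under 0.05 after Benjamini-Hochberg). Over all 9468 genes tested, 65.5% passed, 32.8% as higher and 32.7% as lower, so 6 of 8 is near the background. The median log2 change was 0.11 over the 8 subunits and 0.01 over all genes. The libraries of the groups did not overlap in 7 of the 8 subunits, against 82.5% of all genes. These are bulk samples, in which fewer cells and less RNA per cell cannot be told apart.

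The laminin receptor chain ITGA3 fell the most among the well-expressed subunits. It had 236 and 246 CPM of spliced reads in H3B-8800 cells, against 431 and 434 CPM in DMSO cells. Every H3B-8800 library lay far below both DMSO libraries. The change was -0.84 on the log2 scale (SE 0.05; edgeR, adjusted p = 8.26e-09), or 1.79-fold lower, and it stayed between -0.87 and -0.81 when any 1 library was left out. ITGB4, the hemidesmosome beta chain, was barely present, with 28 and 34 spliced reads in all in H3B-8800 cells and 71 and 105 in DMSO cells. That is 2.45 and 2.74 CPM in H3B-8800 cells and 4.94 and 7.30 CPM in DMSO cells, so the groups did not overlap. Its log2 change was -1.23 (SE 0.29; edgeR, adjusted p = 0.00219), and without DMSO replicate 2 it was -0.94 and did not pass (adjusted p = 0.0595).

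The shared beta chain ITGB1 rose. It had 449 and 440 CPM of spliced reads in H3B-8800 cells, against 278 and 261 CPM in DMSO cells. Both H3B-8800 libraries stood well above both DMSO libraries, with a log2 change of 0.72 (SE 0.05; edgeR, adjusted p = 3.32e-08), or 1.65-fold. ITGAV had 30.1 and 34.9 CPM in H3B-8800 cells and 18.1 and 23.2 CPM in DMSO cells, a log2 change of 0.66 (SE 0.13; edgeR, adjusted p = 0.000529). The groups were apart, but without H3B-8800 replicate 2 ITGAV did not pass (log2 0.55, adjusted p = 0.0596). Its partner ITGB5 had 198 and 202 CPM in H3B-8800 cells and 164 and 174 CPM in DMSO cells, a smaller change of 0.25 (SE 0.06; edgeR, adjusted p = 0.00173). The collagen receptor chain ITGA2 was low, at 11.3 and 10.1 CPM in H3B-8800 cells and 7.02 and 7.16 CPM in DMSO cells. Its change of 0.59 (SE 0.18; edgeR, adjusted p = 0.0112) did not pass with DESeq2 (adjusted p = 0.0559) or without H3B-8800 replicate 1, DMSO replicate 1 or DMSO replicate 2 (adjusted p = 0.0631, 0.0571 and 0.0506).

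The fibronectin receptor chain ITGA5 was at 427 and 446 CPM of spliced reads in H3B-8800 cells and at 448 and 442 CPM in DMSO cells. The groups overlapped, and the log2 change was -0.03 (SE 0.04; edgeR, adjusted p = 0.613). ITGA6 was at 51.6 and 51.8 CPM in H3B-8800 cells and at 53.9 and 53.8 CPM in DMSO cells, a change of -0.06 (SE 0.08; adjusted p = 0.507). These values depend on the scale. With libraries scaled to their total reads the median of all genes was -0.16 and 36.2% of all calls were rises, against 50.0% with TMM. On that scale ITGB1 (0.55) and ITGAV (0.48) remained higher, ITGA3 (-1.02) and ITGB4 (-1.41) remained lower, ITGA5 (-0.20, adjusted p = 0.00113) and ITGA6 (-0.24, adjusted p = 0.015) passed as lower, and ITGA2 (0.42, adjusted p = 0.0603) and ITGB5 (0.07, adjusted p = 0.304) did not pass.

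**Figure D1:**
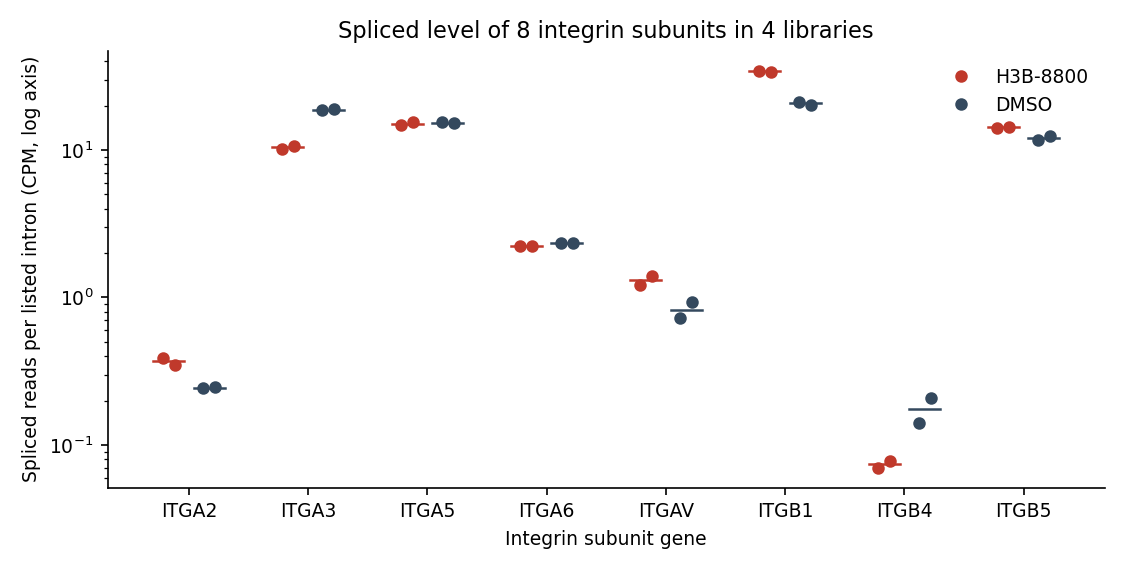
Spliced reads per listed intron (CPM, log axis) of 8 integrin subunit genes. Points are libraries and bars are means of 2, in H3B-8800 cells in red on the left of each pair and DMSO in dark grey on the right. ITGB1 stood at 34.2 in H3B-8800 cells and 20.7 in DMSO cells, and ITGA3 at 10.5 in H3B-8800 cells and 18.8 in DMSO cells.

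Divided by the number of listed introns, the levels could be ranked across genes. With H3B-8800 the order from the top was ITGB1 (34.2 ± 0.48 CPM per intron), ITGA5 (15.1 ± 0.48), ITGB5 (14.3 ± 0.23), ITGA3 (10.5 ± 0.33), ITGA6 (2.25 ± 0.0062), ITGAV (1.3 ± 0.14), ITGA2 (0.369 ± 0.028) and ITGB4 (0.0741 ± 0.0059; SD, n = 2). With DMSO it was ITGB1 (20.7 ± 0.88), ITGA3 (18.8 ± 0.098), ITGA5 (15.3 ± 0.15), ITGB5 (12.1 ± 0.53), ITGA6 (2.34 ± 0.0059), ITGAV (0.826 ± 0.14), ITGA2 (0.245 ± 0.0034) and ITGB4 (0.175 ± 0.048; SD, n = 2). Both libraries of a group gave the same order by this mean, and ITGA3 stood in the fourth place in H3B-8800 cells and in the second in DMSO cells. By the median intron ITGB5 stood above ITGA5 in every library. The medians were 119 and 146.5 spliced reads for ITGB5 and 103 and 135 for ITGA5 in H3B-8800 cells. In DMSO cells the medians were 141 and 148 for ITGB5 and 137 and 134 for ITGA5. By the ratio of their means the closest neighbours were ITGA5 and ITGB5 in H3B-8800 cells, at 14.7 and 15.4 against 14.1 and 14.4 CPM per intron. In DMSO cells they were ITGB1 and ITGA3, at 21.3 and 20.1 against 18.7 and 18.9 CPM per intron. The level of ITGA3 over that of ITGA5, both per intron, was 0.696 in each H3B-8800 library and 1.21 and 1.24 in the DMSO libraries. By the median intron it was 0.961 and 0.844 in H3B-8800 cells and 1.70 and 1.84 in DMSO cells. The level of ITGB1 over the summed levels of the 5 alpha subunits was 1.2 and 1.12 in H3B-8800 cells and 0.57 and 0.535 in DMSO cells. These are levels of RNA at the listed introns, and the protein was not measured.

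In ITGA3 and ITGB1 nearly every intron changed in the direction of its gene, and in ITGA5 few introns passed. Over the 8 genes, 114 introns had enough spliced reads to test, and 21 were higher and 24 lower in H3B-8800 cells (edgeR, Benjamini-Hochberg adjusted p under 0.05), against 19.1% higher and 23.9% lower of all 66136 introns tested. In ITGA3, 22 of 23 introns were lower. The exception was the last listed intron, 23, with 65 and 73 spliced reads in H3B-8800 cells and 108 and 119 in DMSO cells, a log2 change of -0.45 (SE 0.18; edgeR, adjusted p = 0.053). Intron 12 of ITGA3 had 384 and 436 spliced reads in H3B-8800 cells and 878 and 862 in DMSO cells, a change of -0.82 (SE 0.09; adjusted p = 2.18e-07). The ITGA3 introns ranged from -1.26 to -0.42. In ITGB1, all 13 listed introns were higher, by 0.42 to 0.90. Intron 9 of ITGB1 had 804 and 814 spliced reads in H3B-8800 cells and 544 and 503 in DMSO cells, a change of 0.90 (SE 0.09; adjusted p = 5.62e-08). No single intron of any gene passed when either H3B-8800 library was left out (edgeR), although 43 of 116 and 37 of 112 tested integrin introns then had an unadjusted p under 0.05.

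In ITGA5, whose sum did not pass, single introns changed in opposite directions. Introns 8, 9 and 17 were higher and intron 24 was lower, and the other 25 did not pass. The calls of introns 8 and 9 are weak, since DESeq2 (adjusted p = 0.215 and 0.187) and library totals (log2 0.21 and 0.19, adjusted p = 0.256 and 0.257) did not give them, nor did most fits with 1 library left out. Intron 17 of ITGA5 (chr12:54403325-54403624) had 216 and 249 spliced reads in H3B-8800 cells and 212 and 167 in DMSO cells. On the TMM scale its log2 change was 0.56 (SE 0.13; edgeR, adjusted p = 0.0016). Intron 24 (chr12:54400996-54401372) had 252 and 315 spliced reads in H3B-8800 cells and 457 and 432 in DMSO cells, a change of -0.38 (SE 0.11; adjusted p = 0.00653). Like every intron of any gene, introns 17 and 24 did not pass on spliced reads without H3B-8800 replicate 1 or 2. Intron 17 also did not without DMSO replicate 2, and intron 24 did not with DESeq2 (adjusted p = 0.0514). With the introns divided into 3 stretches from the 5′ end, the log2 ratio of spliced reads was 0.20, 0.14 and -0.11 in ITGA5. It was 0.87, 0.75 and 0.57 in ITGB1 and -0.96, -0.77 and -0.87 in ITGA3, with no test of these stretches. A test of whether the introns of a gene differ among themselves (edgeR's diffSpliceDGE, chosen after the data were seen) passed for ITGA5 alone of the 6 subunits that could be tested, with a Benjamini-Hochberg adjusted p = 0.00268, against 7.99% of all genes. It did not pass for ITGA5 without DMSO replicate 1 or DMSO replicate 2 (adjusted p = 0.185 and 0.357). The adjusted p was 0.134 for ITGA3, 0.125 for ITGB1, 0.222 for ITGA6, 0.303 for ITGB5 and 0.996 for ITGAV. Without H3B-8800 replicate 2 the test passed for ITGA3 (adjusted p = 0.0485). Intron 17 of ITGA5 differed from the rest of its gene by 0.59 (adjusted p = 0.0078), where 0.74% of all introns passed.

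**Figure D2:**
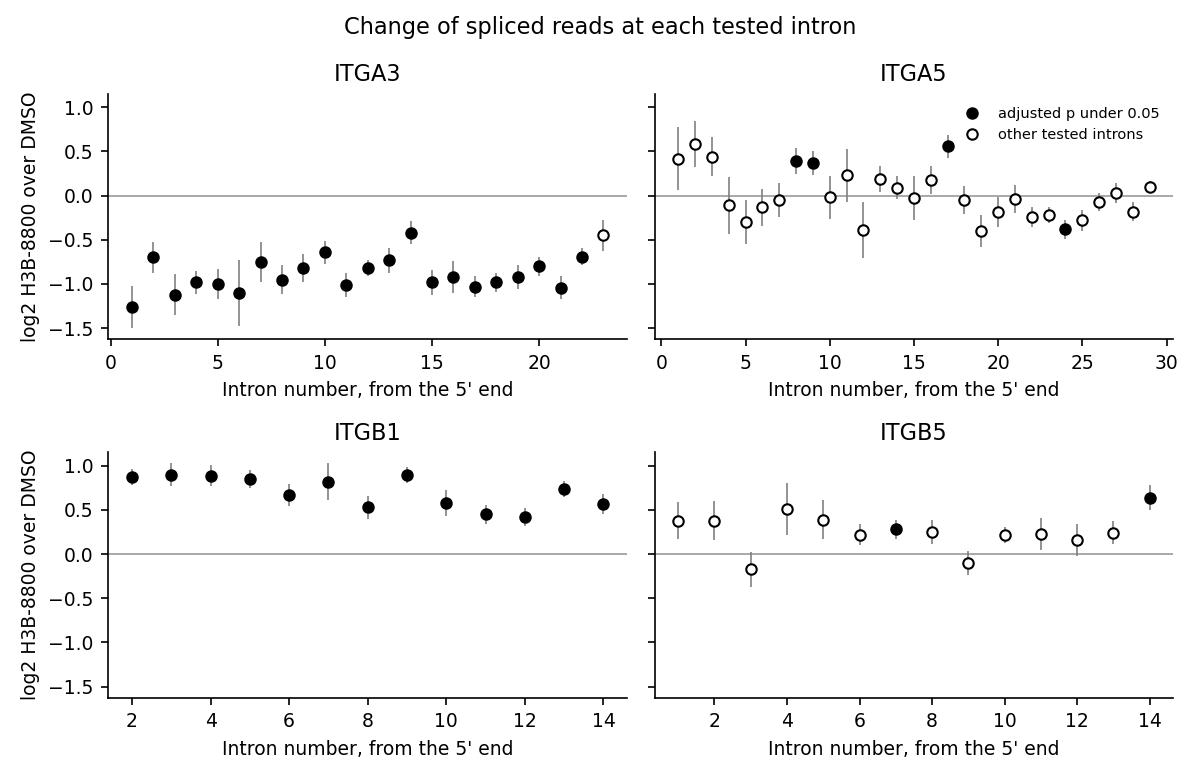
Change of spliced reads (log2, H3B-8800 over DMSO) at each tested intron of ITGA3, ITGA5, ITGB1 and ITGB5, numbered from the 5′ end. Bars are SEs and filled points passed with an adjusted p under 0.05. All ITGA3 introns lay below 0 and all ITGB1 introns above it, and ITGA5 introns lay on both sides.

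In ITGAV 3 of 15 tested introns passed, introns 25, 26 and 29, all higher. None of the 3 passed with DESeq2 (adjusted p = 0.203, 0.252 and 0.146) or with library totals (0.0824, 0.125 and 0.07). With 1 library left out, intron 26 never passed, intron 25, tested in 3 of these 4 fits, passed only without DMSO replicate 1 (log2 2.42) and intron 29 only without DMSO replicate 2 (log2 1.01). In intron 29 of ITGAV there were 61 and 54 spliced reads in H3B-8800 cells and 34 and 48 in DMSO cells, a log2 change of 0.76 (SE 0.26; edgeR, adjusted p = 0.0209). Of the 14 introns of ITGB5, 2 were higher, introns 7 and 14. Intron 14 of ITGB5 had 231 and 202 spliced reads in H3B-8800 cells and 173 and 162 in DMSO cells, a change of 0.64 (SE 0.14; adjusted p = 0.000672). ITGA6 had 1 lower intron of 20, intron 20, with 64 and 73 spliced reads in H3B-8800 cells and 119 and 124 in DMSO cells (-0.56, SE 0.18; adjusted p = 0.0158). No intron of ITGA2 or ITGB4 had enough reads to test. The transcripts of the 8 genes have 205 introns, of which 14 were not listed and are not analysed here. They include introns 24 and 25, the last ones, of ITGA3 and of ITGA6.

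More of the cytoplasmic integrin RNA carried intron sequence in H3B-8800 cells. Over the 8 genes, intronic reads were 5.93% ± 0.082 of intronic plus spliced reads in H3B-8800 cells and 3.38% ± 0.21 in DMSO cells (SD, n = 2 each), a ratio of 1.75. The shares of the groups did not overlap, and a two-sided exact permutation test of 2 against 2 libraries gave p = 0.333, the smallest it can give. Outside these genes the ratio was 1.94. The share was 1.55 times as high in H3B-8800 cells without intron 25 of ITGA5, and 2.68 times without intron 28 of ITGA5 and intron 23 of ITGA3, the most-read introns in DMSO. At introns without an annotated exon inside it was 1.43 times as high, and the matching value of other genes was not computed. Exons of retained_intron transcripts counted as annotated, so that set leaves out intron 25 of ITGA5.

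By gene, the ratio of intronic to spliced reads was higher in H3B-8800 cells in 4 of 6 subunits tested and lower in none (edgeR, quasi-likelihood test, adjusted p under 0.05 after Benjamini-Hochberg). Of all 7566 genes tested, 65.4% were higher and 2.35% lower, 67.7% in all, and the log2 change had a median of 1.35, against 1.16 over the 6 subunits. A fall of spliced reads raises this ratio even at constant intronic reads. ITGB5 had 93 and 96 intronic reads in H3B-8800 cells and 30 and 14 in DMSO cells, and its ratio rose by 2.12 (SE 0.32; edgeR, adjusted p = 3.32e-05). ITGA6 had 67 and 63 intronic reads in H3B-8800 cells and 23 and 18 in DMSO cells, and its ratio rose by 1.99 (SE 0.32; adjusted p = 5.88e-05). The intronic counts of the groups were far apart in both genes. With 1 library left out the ITGB5 change lay between 1.63, without DMSO replicate 2, and 2.81, without DMSO replicate 1.

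ITGA3 had 378 and 386 intronic reads in H3B-8800 cells and 259 and 309 in DMSO cells, and its ratio rose by 1.54 (SE 0.19; edgeR, adjusted p = 4.35e-06) with its spliced reads falling. ITGA5 had 389 and 439 in H3B-8800 cells and 289 and 304 in DMSO cells, a ratio change of 0.78 (SE 0.18; adjusted p = 0.00133). At ITGA5 introns without an annotated exon inside the ratio change was -0.01 (adjusted p = 0.968), and for ITGA6 such introns gave 1.00 (adjusted p = 0.105). The ITGA5 value leaves out intron 25, which annotated retained_intron transcripts contain whole. It keeps intron 28, which had more intronic reads in DMSO cells. This filter cannot tell reads of a retained intron from those of another exon. ITGB1, the most abundant subunit per listed intron, had the lowest mean intronic share, 0.665% ± 0.01 in H3B-8800 cells and 0.639% ± 0.081 in DMSO cells (SD, n = 2 each). In DMSO replicate 2 ITGB5 was lower, at 0.557% against 0.582% for ITGB1. The ratio change of ITGB1 was 0.05 (SE 0.29; adjusted p = 0.881), but at introns without an annotated exon inside it was 1.63 and passed (adjusted p = 0.0237). ITGA2 had 43 and 65 intronic reads in H3B-8800 cells and 37 and 64 in DMSO cells, which overlap, and its ratio change of -0.21 (SE 0.42; adjusted p = 0.668) turned to 1.38 (adjusted p = 0.0346) at introns without an annotated exon inside. ITGAV, with 8 and 12 intronic reads in H3B-8800 cells and 5 and 5 in DMSO cells, and ITGB4, with 11 and 13 against 4 and 3, had too few to test. The ITGB4 reads made up 27.9% ± 0.39 of its reads in H3B-8800 cells and 4.06% ± 1.8 in DMSO cells (SD, n = 2 each).

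**Figure D3:**
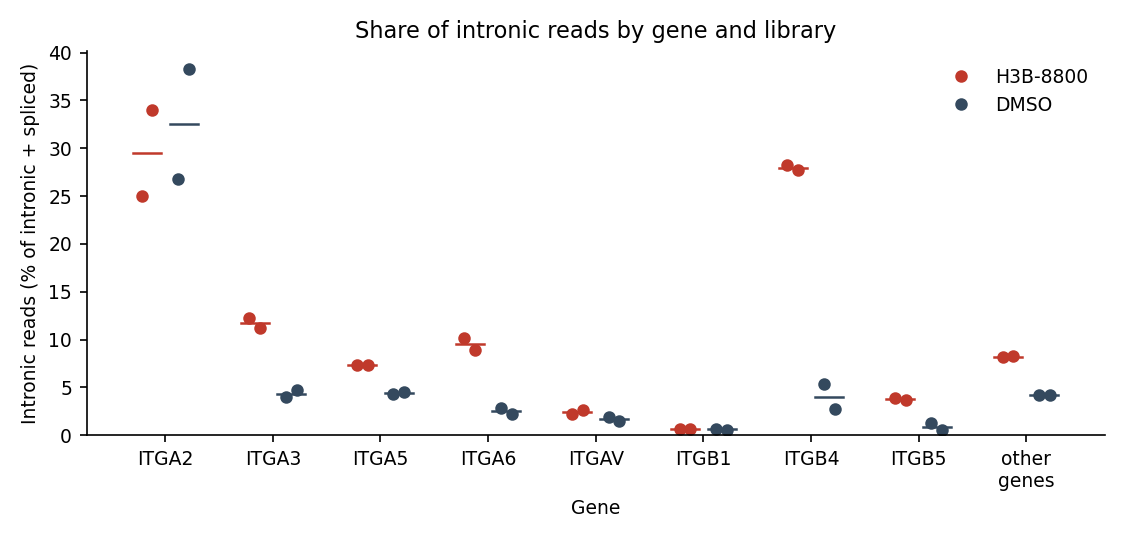
Intronic reads as a percentage of intronic plus spliced reads in each of 8 integrin genes and over all other genes. Points are libraries and bars are means of 2, in H3B-8800 cells in red on the left of each pair and DMSO in dark grey on the right. ITGA3 stood at 11.7% in H3B-8800 cells and 4.37% in DMSO cells, ITGB1 was under 1% in both groups, and the ITGA2 libraries overlapped.

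Intronic reads gathered in a few introns. No library had an intronic read in 82 of the 191 introns, and 16 introns reached a mean of 10 reads. Scaled to the library totals, 8 of the 16 were higher and 1 lower in H3B-8800 cells (edgeR, Benjamini-Hochberg adjusted p under 0.05), against 48.2% higher and 5.74% lower of all 12013 introns tested. With TMM scaling of the intronic reads, which set the median of all introns at 0.09 in place of 1.13 and the share of rises among calls at 52.4% in place of 89.4%, 2 were higher and 5 lower. The intronic-to-spliced ratio, which needs no scaling between libraries, was higher in 10 of 15 introns and lower in 1, against 56.5% and 2.88% of all 9937 introns, 59.4% in all. No intron of any gene passed on intronic reads when either H3B-8800 library was left out (edgeR, smallest adjusted p = 0.094 and 0.093), with 5 and 4 of 16 integrin introns at an unadjusted p under 0.05.

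Intron 25 of ITGA5, whose ends are printed above, had 141 and 159 intronic reads in H3B-8800 cells, against 14 and 19 in DMSO cells. It held 36.2% of the gene's intronic reads in each H3B-8800 library, and 4.84% and 6.25% in the DMSO libraries. The log2 change was 3.27 for intronic reads (SE 0.27; edgeR, adjusted p = 4.12e-06) and 3.73 for their ratio to spliced reads (SE 0.35; adjusted p = 8.24e-06). With 1 library left out, the change in intronic reads lay between 3.06 and 3.5. Like every intron, intron 25 did not pass on intronic reads when either H3B-8800 library was left out. Spliced reads at this intron numbered 171 and 219 in H3B-8800 cells and 285 and 286 in DMSO cells (-0.28, SE 0.12; adjusted p = 0.0642). The whole intron lies in the annotated retained_intron transcripts ITGA5-209 and ITGA5-211. Intron 26 beside it had 0 and 1 intronic reads in H3B-8800 cells and 3 and 0 in DMSO cells, and intron 13 had 18 and 15 in H3B-8800 cells and 2 and 0 in DMSO cells, too few to test.

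Intron 28 of ITGA5 (chr12:54397488-54398596, 1109 bp, with no annotated exon inside) had the most intronic reads of that gene in DMSO cells and went the other way. It had 151 and 159 intronic reads in H3B-8800 cells and 225 and 243 in DMSO cells, a log2 change of -0.50 (SE 0.15; edgeR, adjusted p = 0.0168). The groups did not overlap, but the change did not pass with DESeq2 (adjusted p = 0.113), nor without DMSO replicate 2. It also did not pass when either H3B-8800 library was left out, where no intron of any gene did. With 1 library left out it lay between -0.55 and -0.44. Its ratio to spliced reads changed by -0.14 (SE 0.26; adjusted p = 0.651). Unlike intron 28, intron 29 holds 94 bp of an exon of the retained_intron transcript ITGA5-210. Intron 29 of ITGA5, the last, had 31 and 22 intronic reads in H3B-8800 cells and 16 and 10 in DMSO cells, with a ratio change of 1.2 (SE 0.43; adjusted p = 0.0291) that did not pass without H3B-8800 replicate 1 or DMSO replicate 2 (adjusted p = 0.216 and 0.14).

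**Figure D4:**
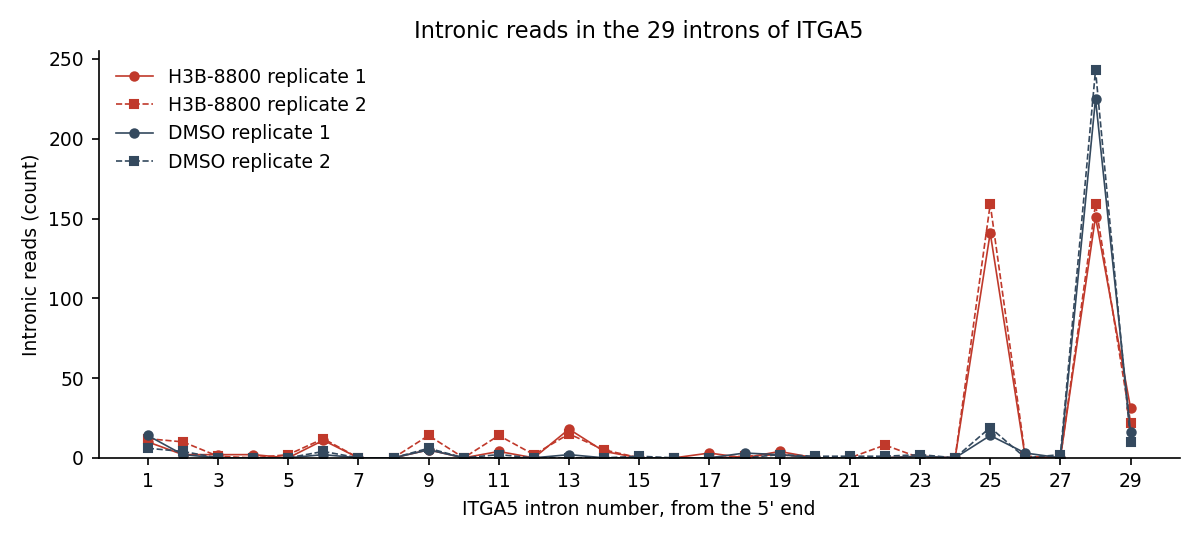
Intronic reads (counts) in each of the 29 introns of ITGA5, numbered from the 5′ end, in the 2 H3B-8800 libraries (red) and the 2 DMSO libraries (dark grey). Intron 25 reached 141 and 159 reads in H3B-8800 cells and 14 and 19 in DMSO cells, and intron 28 was higher in DMSO cells.

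In ITGA3, intron 23 (chr17:50081409-50087743) carried most of the intronic reads, 224 and 222 in H3B-8800 cells and 176 and 177 in DMSO cells. The rise of 0.43 on the library-total scale (SE 0.15; edgeR, adjusted p = 0.0298) turned to -0.61 (adjusted p = 0.00858) with TMM of intronic reads. It did not pass when any 1 of the 4 libraries was left out, as held for every intron without either H3B-8800 library. Its ratio to spliced reads rose by 1.05 (SE 0.31; edgeR, adjusted p = 0.0121), which did not pass without H3B-8800 replicate 1 or 2 (adjusted p = 0.088 and 0.0559). Of the 6335 bp of this intron, 1415 bp lie in an exon of a retained_intron transcript of ITGA3. Intron 10 of ITGA3 (chr17:50074535-50075458), with no annotated exon inside, had 17 and 30 intronic reads in H3B-8800 cells and 5 and 3 in DMSO cells. Its ratio rose by 3.41 (SE 0.52; edgeR, adjusted p = 0.000201), as did those of intron 3 (2.45; adjusted p = 0.00217), intron 16 (2.58, SE 0.54; adjusted p = 0.00162) and intron 22 (2.34, SE 0.49; adjusted p = 0.00157). With 1 library left out, the ratio changes stayed past the threshold, between 1.99 and 3.12 in intron 16 and between 1.77 and 3.28 in intron 22. Intron 16 had 33 and 20 intronic reads in H3B-8800 cells and 10 and 10 in DMSO cells. Exons of other ITGA3 transcripts cover 1425 bp of intron 3, 42 bp of intron 16 and 97 bp of intron 22. Intron 11 of ITGA3, the 72 bp intron printed above, had 8 and 4 intronic reads in H3B-8800 cells and 6 and 16 in DMSO cells, which overlap.

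In ITGA6, intron 5 (chr2:172471106-172474054) had 30 and 28 intronic reads in H3B-8800 cells and 4 and 0 in DMSO cells, with 7 and 13 spliced reads in H3B-8800 cells and 17 and 14 in DMSO cells. Its ratio rose by 4.48 (SE 1.02; edgeR, adjusted p = 0.00269), between 3.6 and 8.30 with 1 library left out. A 117 bp exon of the protein-coding transcripts ITGA6-203, ITGA6-206 and ITGA6-207 lies inside this intron, so reads of that exon and of retained intron cannot be told apart here. In ITGB5, intron 13 (chr3:124764558-124766225), with no annotated exon inside, had 24 and 21 intronic reads in H3B-8800 cells and 8 and 3 in DMSO cells, a ratio change of 2.04 (SE 0.56; adjusted p = 0.00801). Intron 11 of ITGB5 (chr3:124769114-124773689) has 1069 of its 4576 bp in an exon of the retained_intron transcript ITGB5-202. It had 20 and 26 intronic reads in H3B-8800 cells and 10 and 2 in DMSO cells, a ratio change of 1.97 (SE 0.64; adjusted p = 0.0198). Without DMSO replicate 2 neither passed (adjusted p = 0.0628 for intron 13 and 0.132 for intron 11), and intron 11 also failed without H3B-8800 replicate 1 or 2 (adjusted p = 0.0765 and 0.1).

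The ratio fell past the threshold in a single tested intron, near the 5′ end of ITGB1. Intron 2 of ITGB1 (chr10:32932601-32935491) had 9 and 8 intronic reads in H3B-8800 cells and 17 and 19 in DMSO cells, while its spliced reads numbered 819 and 799 in H3B-8800 cells and 572 and 494 in DMSO cells. The groups did not overlap in either kind of read. The ratio fell by 1.68 on the log2 scale (SE 0.45; edgeR, adjusted p = 0.00708), and the intronic reads alone changed by -0.98 (SE 0.57; adjusted p = 0.168). Without H3B-8800 replicate 2 the ratio did not pass (-1.61, adjusted p = 0.0517). Exons of the protein-coding transcripts ITGB1-209, ITGB1-210 and ITGB1-216 lie inside this intron. Intron 1 of ITGA2 (chr5:52989533-53026747) had 14 and 28 intronic reads in H3B-8800 cells and 26 and 54 in DMSO cells, a change of -0.84 (SE 0.47; adjusted p = 0.152). The groups overlapped, and an exon of the antisense gene AC025180.1 lies inside, whose reads cannot be told apart from those of ITGA2 since the sources used here do not say whether counting went by strand.

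Few of the other integrin subunits in the counts were expressed. Of 18 others on the list, 17 were in the deposited counts, and ITGA1 was not, so its level is unknown here. Of these 17, 5 passed the minimum of 1 CPM. In H3B-8800 cells 1 of the 5 fell and 4 did not pass, where 32.7% of all genes were lower. With library totals 3 were lower, against 3927 of all 9468 genes. ITGA10, a collagen receptor chain, had 5.94 and 5.55 CPM of spliced reads in H3B-8800 cells and 14.4 and 10.9 CPM in DMSO cells (log2 -1.14, SE 0.20; edgeR, adjusted p = 0.000217). ITGB3, another partner of ITGAV, was at 6.64 and 10.5 CPM in H3B-8800 cells and at 9.45 and 11.4 CPM in DMSO cells, which overlap (-0.27, SE 0.22; adjusted p = 0.289). ITGAE, a chain known from lymphocytes, was the highest of the other subunits, at 38.8 and 38.9 CPM in H3B-8800 cells and 40.8 and 44.9 CPM in DMSO cells (-0.14, SE 0.09; adjusted p = 0.168). The leukocyte chains ITGB2, ITGAL, ITGAM and ITGAX were at or below 0.402 CPM.

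The ligands that these receptors bind moved in both directions. Of 23 tested, 8 were higher and 7 lower, with a median of 0.22. Over all genes 32.8% were higher and 32.7% lower, with a median of 0.01. With library totals 4 ligands were higher and 8 lower, against 2230 and 3927 of all 9468 genes. Fibronectin (FN1), the ligand of the ITGA5 and ITGB1 pair, averaged 110 ± 2.3 CPM of spliced reads in H3B-8800 cells and 80.9 ± 0.41 CPM in DMSO cells (SD, n = 2 each; log2 0.45, SE 0.07; edgeR, adjusted p = 4.37e-05). The matricellular proteins CTGF (0.96, SE 0.09) and THBS1 (0.45, SE 0.05) also rose. Collagen I alpha chain COL1A1 averaged 283 ± 19 CPM in H3B-8800 cells and 400 ± 14 CPM in DMSO cells (SD, n = 2 each), a fall of 0.50, and TGFB1, whose latent form binds ITGAV receptors, fell by 0.67 (SE 0.06). COL1A2, also on the ligand list, was too low to test, at a mean of 0.0437 CPM in H3B-8800 cells and 0.174 CPM in DMSO cells.

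Of 15 genes that switch integrins on or off from inside the cell, 5 were higher and 8 lower, with a median of -0.32. Over all genes 32.8% were higher and 32.7% lower, with a median of 0.01. With library totals 3 of the 15 were higher and 8 lower, against 2230 and 3927 of all 9468 genes. Talin (TLN1), which binds beta subunit tails and activates them, averaged 362 ± 0.68 CPM of spliced reads in H3B-8800 cells and 533 ± 10 CPM in DMSO cells (SD, n = 2 each; log2 -0.56, SE 0.04; edgeR, adjusted p = 1.25e-07). Kindlin-2 (FERMT2), the other activator at beta tails, rose by 0.50 (SE 0.06), as did the small GTPase RAP1B, which recruits talin (0.86, SE 0.06). Of the inactivators, SHARPIN had 20.9 and 28.5 CPM in H3B-8800 cells and 79.7 and 77.7 CPM in DMSO cells (-1.67, SE 0.11; adjusted p = 3.69e-08), and filamin A (FLNA) averaged 823 ± 51 CPM in H3B-8800 cells and 1320 ± 60 CPM in DMSO cells (SD, n = 2 each; -0.68, SE 0.05). Talin and both named inactivators thus fell, while kindlin-2 and RAP1B rose.

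Of 32 adaptors and kinases of focal adhesions, the plaques that form on clustered integrins, 12 were higher and 12 lower, with a median of 0.07. Over all genes 32.8% were higher and 32.7% lower, with a median of 0.01. With library totals 8 of the 32 were higher and 14 lower, against 2230 and 3927 of all 9468 genes. Integrin-linked kinase (ILK), an adaptor for beta tails, had 71.7 and 64.2 CPM of spliced reads in H3B-8800 cells and 142 and 133 CPM in DMSO cells (log2 -1.02, SE 0.07; edgeR, adjusted p = 7.27e-08). Focal adhesion kinase (PTK2; -0.54, SE 0.05), its relative PTK2B (-1.14, SE 0.11) and the scaffold paxillin (PXN; -0.53, SE 0.06) fell too. The PXN ratio of intronic to spliced reads rose by 4.45 (adjusted p = 3.58e-08). Vinculin (VCL), which binds talin and actin, had 89.4 and 83.4 CPM in H3B-8800 cells and 45.3 and 47.9 CPM in DMSO cells, a rise of 0.89 (SE 0.08).

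All 4 tested hemidesmosome partners of ITGA6 and ITGB4 passed, 2 higher and 2 lower, where 65.5% of all genes passed. Collagen XVII (COL17A1) had 5.16 and 4.91 CPM of spliced reads in H3B-8800 cells and 10.3 and 12.6 CPM in DMSO cells (log2 -1.18, SE 0.20; edgeR, adjusted p = 0.000161), and the tetraspanin CD151, which binds laminin-receptor integrins, fell by 0.18 (SE 0.06). The linker genes DST (0.84, SE 0.14) and PLEC (0.38, SE 0.12) rose, but PLEC did not pass with library totals (0.21, adjusted p = 0.155).

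Of 17 membrane partners, 11 were higher and 3 lower, with a median of 0.40, where 32.8% of all genes were higher and 32.7% lower. With library totals 9 were higher and 4 lower, and of all 9468 genes 2230 were higher and 3927 lower. The CD98 heavy chain SLC3A2, which binds ITGB1, averaged 106 ± 11 CPM of spliced reads in H3B-8800 cells and 63.7 ± 0.65 CPM in DMSO cells (SD, n = 2 each; log2 0.73, SE 0.08; edgeR, adjusted p = 3.34e-06). The hyaluronan receptor CD44 (1.07, SE 0.15), the tetraspanin CD63 (0.50, SE 0.04) and the protease ADAM10 (0.74, SE 0.08) rose as well. Of 15 genes of integrin trafficking, 9 were higher and 2 lower, with a median of 0.45, against the same 32.8% and 32.7% of all genes, and with library totals 7 and 3. RAB21, which binds alpha subunit tails on endosomes, had 186 and 187 CPM in H3B-8800 cells and 96.1 and 92.5 CPM in DMSO cells, a rise of 0.98 (SE 0.06; adjusted p = 1.41e-08). EPS8 (1.04, SE 0.05) and RAB5A (0.89, SE 0.07) rose, and SNX17, which keeps ITGB1 from degradation, averaged 96.5 ± 0.27 CPM in H3B-8800 cells and 153 ± 2.9 CPM in DMSO cells (SD, n = 2 each), a fall of 0.67.

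**Figure D5:**
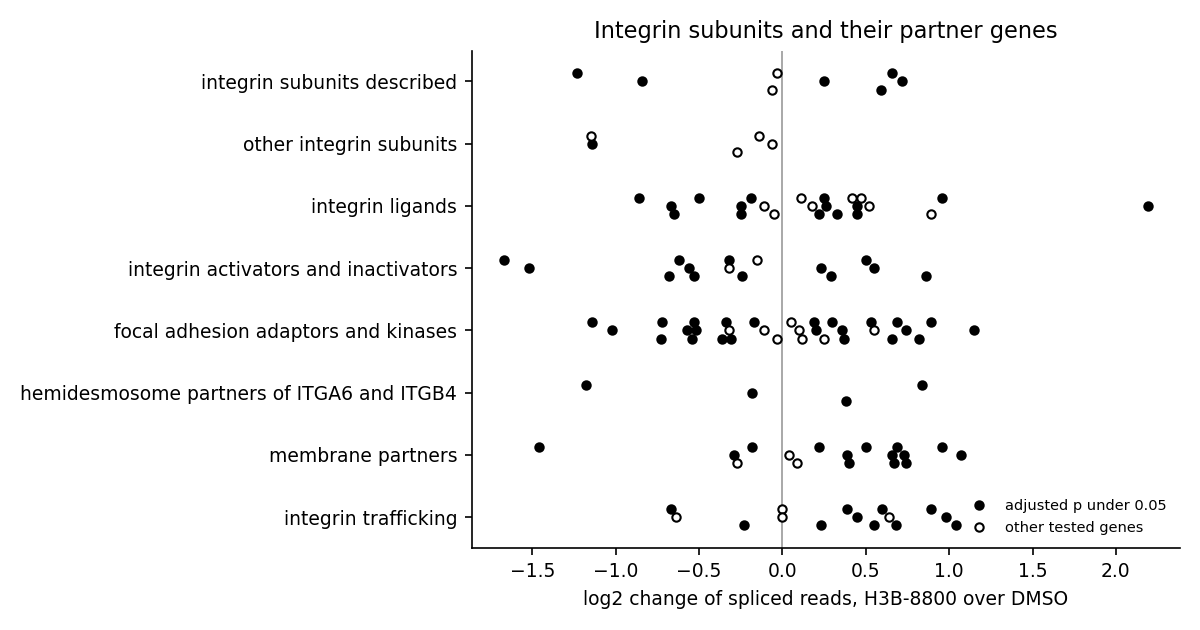
Change of spliced reads (log2, H3B-8800 over DMSO) of 8 integrin subunits and of the tested genes of 7 partner lists, 1 point a gene. Filled points passed with an adjusted p under 0.05. The 5 other integrin subunits all lay below 0, and the other lists had points on both sides of it.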

How the data were processed

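Cytoplasmic polyA RNA of 4 SUM159 libraries was sequenced from strand-specific libraries, per the labels' protocols. The submitters' processing notes name HISAT2 2.0.4, hg38 and mm10. The deposited files give 2 read counts and an RPKM per intron, without a header, for 1 RefSeq transcript a gene. The counter and its strand setting are not given in the sources used here. The first count was taken as intronic reads and its shortfall from the second as spliced reads, a reading inferred from the values. Reads over several introns enter each of them. Even numbers made up 70.94% to 72.31% of non-zero intronic counts, so mates of a pair may each have been counted, and the tests treat them as separate reads. The authors' RPKM equalled the first count over intron length and a library total, which gave the totals. Deposited coordinates include 1 exon base at each end. Trimmed by it, 99.9% were introns of GENCODE release 29 on hg38, and coordinates are given so, 1-based.

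Counts were tested across all genes or introns with edgeR 4.0.16 (R 4.3.3) and Benjamini-Hochberg adjustment at 0.05: spliced reads per gene (mean of at least 1 CPM) and per intron (mean of at least 10 reads) with TMM scaling, intronic reads with library totals, and the intronic-to-spliced ratio as an interaction in 1 model with a term per library (a mean of 10 or more reads for each kind). SEs were derived from the F statistic. The tests were also run on simulated counts in which few features changed, unlike in these data. That run therefore does not vouch for the calls or the scaling here. DESeq2 1.42.0 and limma 3.58.1 were alternatives. Replicates differed by more than counting noise (chi-square per degree of freedom 3.8 with H3B-8800 and 3.52 with DMSO).

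The members, gene lists and tests were chosen with earlier results of these data known. Named are all members, each member's most-read introns (also per kb), up to 3 introns in each direction with the smallest adjusted p in each test, and up to 4 genes a list plus TLN1, FERMT2, PTK2, ILK, PXN, VCL, FN1, PLEC, DST and CD151. Introns 13 and 26 of ITGA5 and the leukocyte integrins other than ITGAE were named after their values were seen.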

Additional observations from a re-analysis of the deposited data

How the results depend on the processing

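Over the alternatives run, ITGA3 stayed lower (-1.02 to -0.81 on the log2 scale) and ITGB1 higher (0.55 to 0.76), always past the threshold, while ITGA2 passed in only some. With the median over introns in place of the sum, 4059 genes and 2 subunits passed on spliced reads (6199 and 6 by the sum). DESeq2 called 16082 introns on spliced reads, against 28404 with edgeR, and 3 integrin introns on intronic reads, against 9. Without a read minimum, 6 integrin introns passed on the ratio, against 11. Introns without an annotated exon gave 2580 genes with a changed ratio, against 5125, and turned ITGA2 from -0.21 to 1.38 and ITGA5 from 0.78 to -0.01. For ITGA5 that set lacks intron 25, which lies whole inside annotated retained_intron transcripts. TMM of intronic reads turned intron 23 of ITGA3 to -0.61. With 1 library left out, called introns ranged from 0 to 6742 for intronic reads (integrin introns 0 to 11), from 0 to 22021 for spliced reads (0 to 38) and from 3848 to 5713 for the ratio (7 to 12), and genes whose introns differ among themselves from 90 to 320. The lone library of a group was then assumed to vary like the other group. The counts with 0 had 4254 and 4070 introns (intronic) and 23861 and 24122 (spliced) at an unadjusted p under 0.05, and the cause was not tested. With the replicate number as a block, 6284 genes passed on spliced reads (6199 without), and 7 integrin introns passed on intronic reads (9 without). Across genes, the deviations from the group mean of samples with the same number correlated at 0.0545. With 2 libraries in each group this cannot decide whether such samples were handled together. Depth limits ITGB4, ITGAV, ITGB1 and ITGA2, which had at most 65 intronic reads in a library.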
